A study of Arabidopsis thaliana with 24 samples.

Results

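A set of 9 genes of the Casparian strip in seedlings of Arabidopsis thaliana was followed through osmotic stress, chosen by gene identifier: CASP1 (AT2G36100), CASP2 (AT3G11550), CASP4 (AT5G06200), CASP5 (AT5G15290), ESB1 (AT2G28670), PER64 (AT5G42180), MYB36 (AT5G57620), SCR (AT3G54220) and SGN3 (AT4G20140). Of these 9 genes, 7 were among the 18240 genes with counts, and CASP4 and CASP5 were not analysed here. Wild-type Columbia-0 seedlings, 7 d old, were placed for 1, 2 or 3 h in a 30% (w/v) solution of polyethylene glycol (PEG) of molecular weight 8000, which withdraws water at a potential of -2 MPa, or for 1 h in water. Roots and shoots were parted after treatment, giving 8 groups of 3 libraries, each library from a pool of 30 to 50 seedlings. No mutant, transgene or further agent is labelled in any of these groups. Water was sampled at 1 h only, and PEG and the hours spent in solution cannot be told apart in the later groups; the sample labels give water for 1 h, whereas the treatment protocol lists a time of 0 h.

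The Casparian strip is a lignin band that rings each endodermal cell of the root and seals the wall space between cells, so that water and ions must cross a membrane before they reach the vascular tissue. CASP proteins are membrane proteins that gather in a belt where the strip will form and act as a scaffold for the enzymes that build it. ESB1, a dirigent-domain protein, and PER64, a peroxidase, work at this belt in lignin deposition. MYB36 is the transcription factor that switches on CASP genes and other genes of the strip, SCR is a GRAS transcription factor that specifies the endodermis, and SGN3, named GSO1 in the reference annotation, is the receptor kinase that senses gaps in the barrier.

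Of the 7 genes, 4 (CASP1, CASP2, ESB1 and PER64) fell together in roots and stood at 27.9% to 40.4% of their water level after 3 h of PEG. The 250 bases before the annotated start of each of these 4 genes are printed because the genes moved together. They were read from RefSeq assembly TAIR10.1 and run 5′ to 3′ on the gene's own strand; the deposited table names no genome build. The CASP1 window is chr2:15160800-15161049 on the minus strand, that of CASP2 chr3:3637928-3638177 on the plus strand, that of ESB1 chr2:12302359-12302608 on the minus strand and that of PER64 chr5:16852378-16852627 on the plus strand. Capitals mark matches, on either strand, to the core of the abscisic acid response element (ACGTG), the core of the dehydration response element (CCGAC), the W-box core (TTGAC) or the AC element bound by MYB proteins (ACCNANC).
CASP1: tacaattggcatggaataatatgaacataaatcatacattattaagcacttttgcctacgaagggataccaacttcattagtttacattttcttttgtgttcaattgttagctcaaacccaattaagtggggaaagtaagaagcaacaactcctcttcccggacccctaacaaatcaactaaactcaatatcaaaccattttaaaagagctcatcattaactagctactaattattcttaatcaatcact
CASP2: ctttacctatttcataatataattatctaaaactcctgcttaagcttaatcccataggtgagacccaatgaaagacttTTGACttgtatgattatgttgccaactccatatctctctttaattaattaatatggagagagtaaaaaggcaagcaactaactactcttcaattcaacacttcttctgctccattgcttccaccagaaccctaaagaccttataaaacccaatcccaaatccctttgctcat
ESB1: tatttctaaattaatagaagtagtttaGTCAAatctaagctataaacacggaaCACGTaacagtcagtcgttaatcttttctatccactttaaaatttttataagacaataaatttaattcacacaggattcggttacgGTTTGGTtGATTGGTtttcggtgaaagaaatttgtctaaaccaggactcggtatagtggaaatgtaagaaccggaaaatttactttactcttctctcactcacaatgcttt
PER64: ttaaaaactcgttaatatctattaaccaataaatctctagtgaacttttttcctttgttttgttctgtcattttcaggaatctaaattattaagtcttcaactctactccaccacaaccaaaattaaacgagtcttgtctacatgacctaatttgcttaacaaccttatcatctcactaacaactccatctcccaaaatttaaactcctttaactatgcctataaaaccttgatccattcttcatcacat

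No motif searched occurred in all 4 windows. The CASP1 and PER64 windows held none of the 4 motifs, and the dehydration element core occurred in none of the 4. CASP2 had 1 W-box core, and ESB1 had 1 abscisic acid element core, 1 W-box core and 2 AC elements. Over all 27438 gene windows of this length, 22.9% held ACGTG, 12% CCGAC, 44.9% TTGAC and 27.8% ACCNANC. These matches describe letters in the window and were not tested as binding sites.

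Depth set how firmly each gene could be measured. Total counts ran from 1332586 (PEG 1 h, replicate 3) to 5495746 in root libraries and from 343397 (PEG 2 h, replicate 2) to 4009409 in shoot libraries. Levels are given in CPM, counts brought to a common library size with TMM scaling within each organ. The libraries came from 3′ counting, so CPM was used to compare groups for 1 gene and not to rank genes. In roots, 6 of the 7 genes passed the filter on low counts, and SGN3 did not. In whole organs, fewer endodermal cells and less RNA per cell cannot be told apart.

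In roots, CASP1, CASP2, PER64 and ESB1 lost most of their transcript over 3 h, while neither SCR nor MYB36 was called lower. CASP1 stood at 446, 430.4 and 420.0 CPM in the water libraries, at 322, 309 and 404 CPM after 1 h of PEG, at 218, 226 and 199.7 CPM after 2 h and at 133, 129.5 and 109 CPM after 3 h. All 3 libraries at each PEG time lay below all 3 water libraries, and the 3 h libraries lay below the 2 h libraries. Its log2 fold change against water was -0.33 ± 0.12 (SE) at 1 h, -1.01 ± 0.12 at 2 h and -1.80 ± 0.12 at 3 h, the last a 3.49-fold drop. With p adjusted by Benjamini-Hochberg over all genes tested in the quasi-likelihood test of edgeR, it was 0.054 at 1 h, 3.7e-06 at 2 h and 2.1e-09 at 3 h. The 1 h value rested on the setting: the adjusted p was 0.013 with DESeq2, 0.039 with edgeR on RLE factors and 0.0066 with edgeR without replicate 3 of PEG 1 h, the shallowest root library.

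CASP2, also a scaffold gene, followed the same course. It was at 152, 155 and 151 CPM in water, at 125, 116 and 147 CPM after 1 h, at 73.2, 97.5 and 80.8 CPM after 2 h and at 59.4, 40.4 and 47.6 CPM after 3 h. Its PEG libraries lay below its water libraries at every time, and the 1 h libraries lay nearest to water. Over all genes tested, 17.4%, 20.6% and 25.1% had all PEG libraries below all water libraries at 1, 2 and 3 h. CASP2 fell by 0.87 ± 0.14 on the log2 scale at 2 h and by 1.64 ± 0.15 at 3 h (edgeR adjusted p = 0.00016 and 6.6e-08). At 1 h it did not pass, with a log2 fold change of -0.25 (edgeR adjusted p = 0.23, 95% interval -0.55 to 0.05).

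The peroxidase and dirigent-domain genes also fell, with ESB1 at a higher share of its water level than PER64 at 3 h (40.4% and 27.9%). PER64 was at 233, 239 and 219.7 CPM in water, at 193, 191 and 212 CPM after 1 h, at 103, 126 and 120.3 CPM after 2 h and at 64.6, 63.8 and 64.8 CPM after 3 h. It fell by 0.99 ± 0.11 on the log2 scale at 2 h and by 1.84 ± 0.11 at 3 h (edgeR adjusted p = 1.4e-06 and 4.6e-10). Its 3 h mean was 64.4 ± 0.559 CPM (SD, n = 3). ESB1 was at 241, 229 and 218 CPM in water, at 244, 188 and 257 CPM after 1 h, at 134, 155 and 156 CPM after 2 h and at 101, 92.2 and 84.5 CPM after 3 h. At 1 h its libraries overlapped those in water, with a log2 fold change of -0.00 ± 0.13 (edgeR adjusted p = 0.99, 95% interval -0.27 to 0.26). ESB1 fell by 0.63 ± 0.13 at 2 h and by 1.31 ± 0.13 at 3 h (edgeR adjusted p = 0.00098 and 2.1e-07). The ESB1 call at 2 h was lost when a digit in the library codes was added as a term (-0.48, edgeR adjusted p = 0.29).

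**Figure D1:**
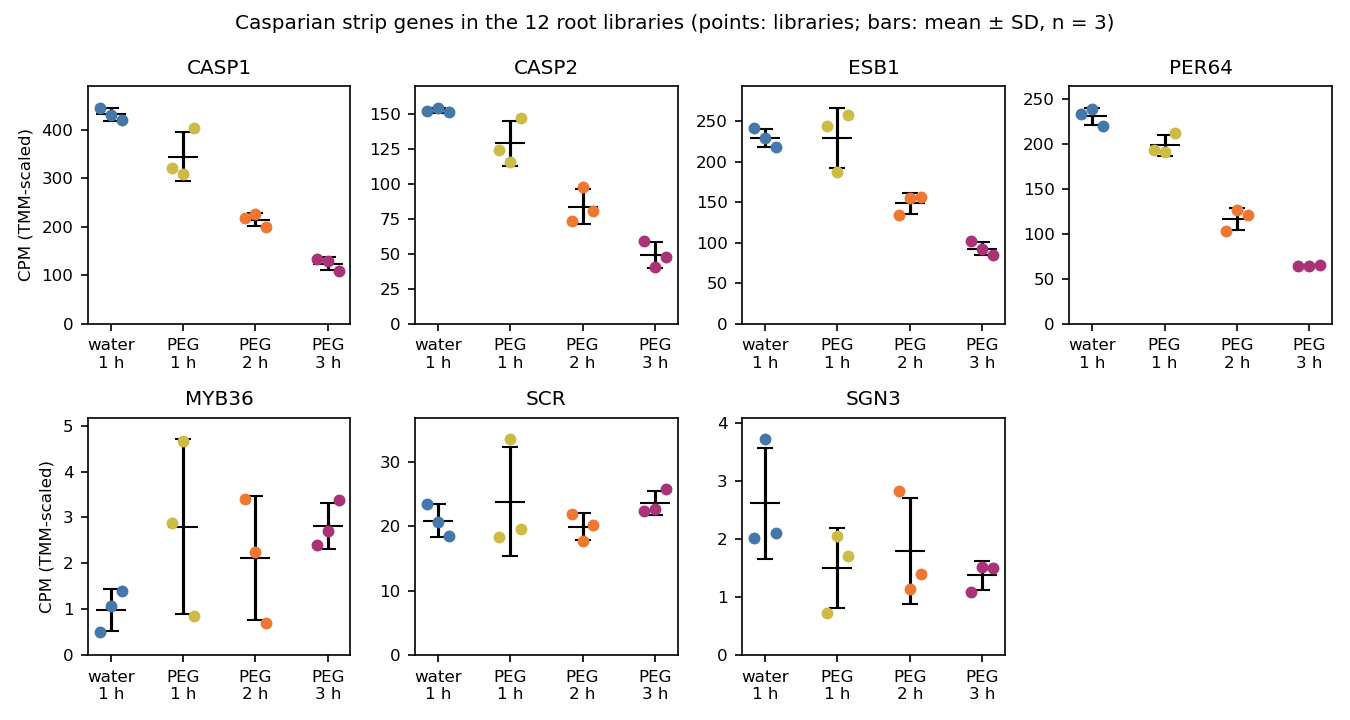
Levels of the 7 measured Casparian strip genes in the 12 root libraries, in TMM-scaled CPM on axes from 0; points are libraries and black bars the mean ± SD of 3 libraries. CASP1 goes from 420.0 to 446 CPM in water to 109 to 133 CPM after 3 h of PEG, and the same downward course is seen for CASP2, ESB1 and PER64, whereas SCR stays between 17.8 and 33.6 CPM.

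No fall was called for either transcription factor gene. SCR was at 23.6, 20.7 and 18.4 CPM in water, at 18.3, 33.6 and 19.6 CPM after 1 h, at 21.9, 17.8 and 20.3 CPM after 2 h and at 22.4, 22.7 and 25.9 CPM after 3 h. The SCR groups overlapped at every time. At 3 h its log2 fold change was 0.18 ± 0.20 (edgeR adjusted p = 0.49), with a 95% interval of -0.23 to 0.59 that does not reach the drop of any of the 4 falling genes. MYB36 was scarce, with 2, 4 and 6 counts in water, 8, 16 and 1 counts after 1 h, 18, 8 and 2 counts after 2 h and 11, 16 and 18 counts after 3 h. Its groups overlapped at 1 and 2 h, and at 3 h all PEG libraries lay above all water libraries. MYB36 passed the filter on low counts through its PEG libraries, so its test is a description. It rose at 3 h by 1.48 ± 0.55 on the log2 scale (edgeR adjusted p = 0.037), from 0.988 ± 0.454 CPM (SD, n = 3) in water to 2.82 ± 0.501 CPM. That call was lost with DESeq2 (adjusted p = 0.097), with a digit in the library codes as a term (edgeR adjusted p = 0.53), when any 1 water library was left out (edgeR adjusted p = 0.053 to 0.15) and without replicate 2 or replicate 3 of PEG 3 h (edgeR adjusted p = 0.07 and 0.099). In the authors' deposited table the MYB36 adjusted p at 3 h was 0.129.

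The receptor gene SGN3 was near the limit of detection. It had 8, 14 and 9 counts in the root water libraries, 2, 7 and 2 after 1 h of PEG, 15, 4 and 4 after 2 h and 5, 9 and 8 after 3 h. The groups overlapped at each time apart from 3 h, where the highest PEG library reached 1.52 CPM and the lowest water library 2.01 CPM. With no filter on low counts, its log2 fold change at 3 h was -0.94 ± 0.48 (edgeR adjusted p = 0.16), so a change was not detectable at this depth.

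Counted over the 6 genes tested in root, none was called at 1 h. After 2 h, 4 were lower, and after 3 h, 4 were lower and 1 was higher. The higher gene, MYB36, passed the filter through its PEG libraries and is counted as a description. At 1 h, 9.06% of all 10941 genes tested fell and 11.5% rose. CASP1 and MYB36 each had an unadjusted edgeR p of 0.011 at that time, and the share of all genes under an unadjusted 0.05 was not counted. At 2 h, 12.3% of all genes fell and 12.7% rose, and at 3 h, 19.5% fell and 21.1% rose. The median log2 fold change of the 6 genes was -0.11, -0.75 and -1.47 at 1, 2 and 3 h, beside medians of 0.03, 0.06 and 0.07 over all genes tested. These 3 comparisons share the same water libraries.

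The comparison of PEG 3 h with PEG 1 h uses no water library and holds the solution constant. All 4 genes were lower at 3 h than at 1 h, by 1.47 ± 0.12 (CASP1), 1.39 ± 0.15 (CASP2), 1.303 ± 0.13 (ESB1) and 1.62 ± 0.11 (PER64) on the log2 scale, with edgeR adjusted p between 6.9e-08 and 7.6e-06. Over all genes, 8.58% fell in this comparison. SCR and MYB36 had log2 fold changes of -0.06 (edgeR adjusted p = 0.89) and -0.19 (edgeR adjusted p = 0.84). Within the 1 h group, replicate 2 had the lowest CASP1, CASP2, PER64 and ESB1 levels and the highest SCR and MYB36 levels, and all 4 falls from 1 h to 3 h were also called without it.

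**Figure D2:**
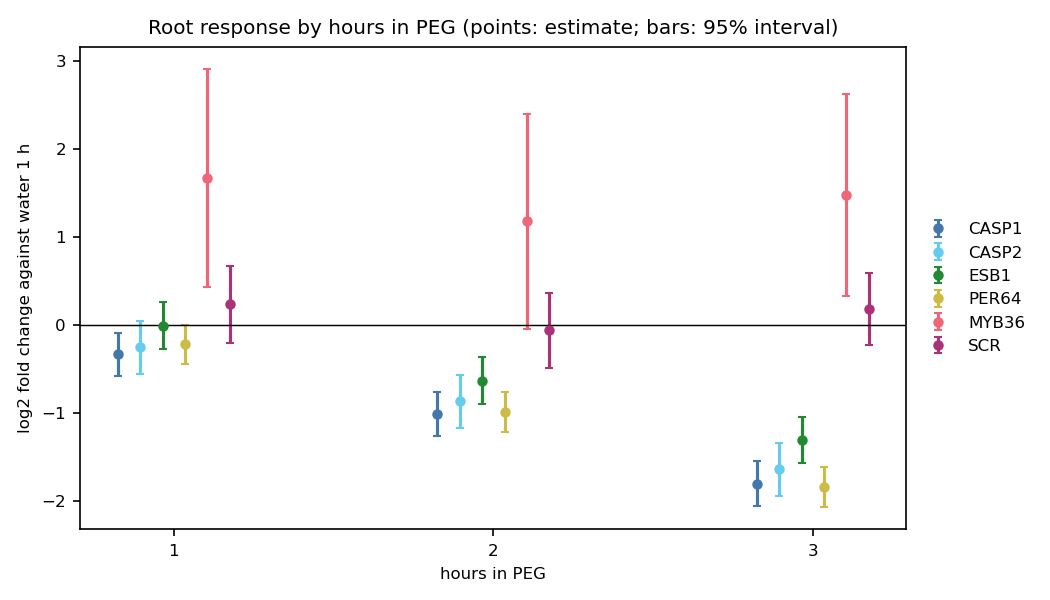
Log2 fold change of 6 Casparian strip genes in roots at 1, 2 and 3 h of PEG against water 1 h, with bars for the 95% interval from the quasi-likelihood fit. The 4 genes of the strip itself reach -1.31 to -1.84 at 3 h, SCR stays near 0 and the wide MYB36 bars lie above 0 at 1 h and 3 h.

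Library codes in the labels carry a digit that follows the groups in part, and the labels do not say what it marks. All water roots and replicate 1 of PEG 1 h have the digit 5 and the remaining PEG roots the digit 6, so for 2 h and 3 h against water the digit and the treatment differ together. Among root groups only PEG 1 h holds both digits, and there CASP1 was at 322 CPM in the library with digit 5 and at 309 and 404 CPM in those with digit 6. With the digit as a term, the log2 fold changes at 3 h ran from -1.16 for ESB1 to -1.94 for CASP1, and all 4 passed edgeR's adjusted threshold. In shoots, water, PEG 1 h and replicates 1 and 2 of PEG 2 h have the digit 4, and the remaining libraries the digit 5. The digit thus differs together with treatment for shoot 3 h against water, and together with organ for root against shoot in water. The fit of both organs was not run with the digit.

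Summed over CASP1, CASP2, ESB1 and PER64, the strip genes took 0.0964% to 0.104% of all counts in the water roots. Their share was 0.0788% to 0.0896% after 1 h, 0.0551% to 0.0609% after 2 h and 0.0331% to 0.0367% after 3 h. In shoot libraries the same 4 genes took 0.000582% to 0.00326% of counts. No 2 root groups overlapped in this share, which is a description of genes already seen to fall.

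Ratios of counts inside a library do not depend on how libraries are scaled, and they describe how the strip genes changed relative to each other. CASP2 and PER64 relative to CASP1 were, at 3 h, 1.13 and 0.983 times their mean ratio in water. ESB1 to CASP1 went from 0.519 to 0.540 in the water libraries to 0.711 to 0.775 at 3 h, a change of 1.41 times with no overlap. ESB1 to PER64 went from 0.959 to 1.03 in water to 1.303 to 1.57 at 3 h. SCR to CASP1 went from 0.0439 to 0.0528 in water to 0.169 to 0.237 at 3 h, a change of 4.01 times. With 3 libraries against 3, the smallest two-sided p of the exact permutation test is 0.1, which each of these last 3 ratios gave at 3 h (0.188 after Benjamini-Hochberg adjustment over 15 comparisons), so the design could not reach 0.05.

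**Figure D3:**
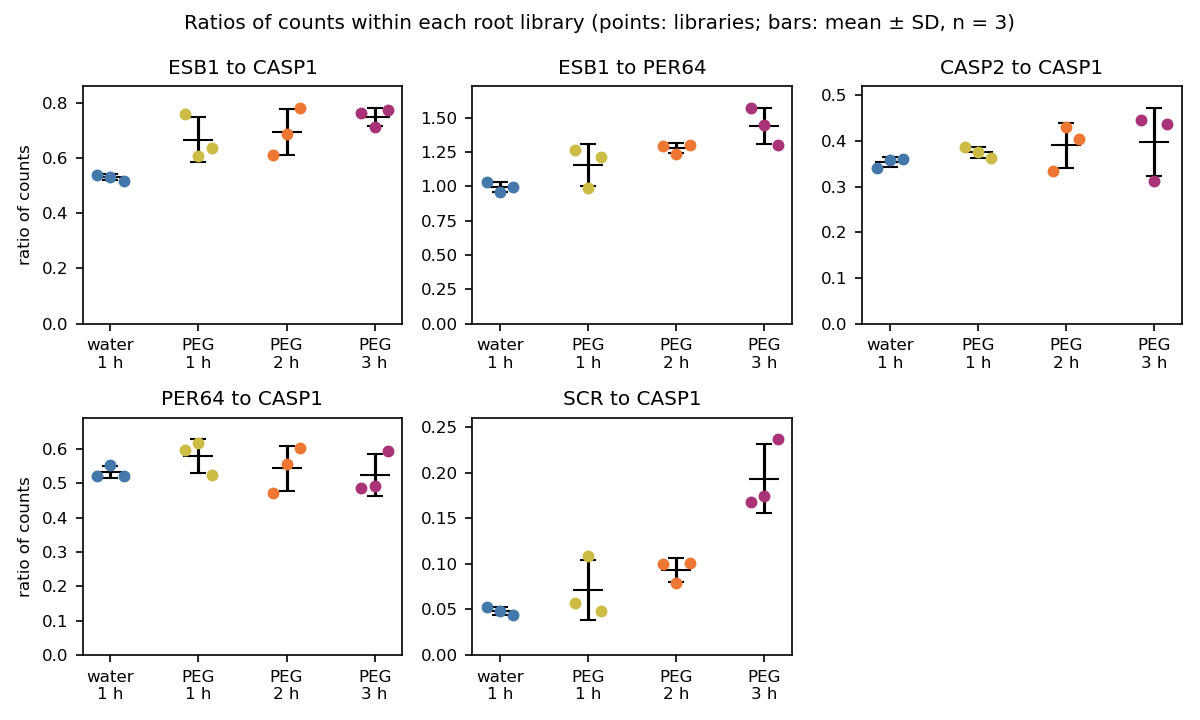
Ratios of counts between strip genes within each of the 12 root libraries, on axes from 0; points are libraries and bars the mean ± SD of 3. SCR to CASP1 goes from 0.0483 in water to 0.194 at 3 h and ESB1 to CASP1 from 0.530 to 0.750, while PER64 to CASP1 has means of 0.533 in water and 0.524 at 3 h.

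Over the 12 root libraries, the log2 CPM of the 4 falling genes correlated with each other at Pearson r of 0.970 to 0.985, and with group means removed at 0.34 to 0.64. These values describe libraries that share treatment and depth. Genes most like the mean standardized course of CASP1 and CASP2 were ranked over 10938 other genes. DIR24, a dirigent protein gene of the strip, ranked 1 (r = 0.990), followed by PER64 (r = 0.989), and ESB1 ranked 8 (r = 0.977). The remaining genes of the first 12 were AT4G02090, NIR1 (nitrite reductase), AT4G12510, DELTA-TIP (a tonoplast aquaporin), CYP83B1 (indole glucosinolate synthesis), TIP4;1 (also a tonoplast aquaporin), AT4G12520, DIR9 and RHA3B (a RING finger protein gene), the last at r = 0.972. AT4G12510 and AT4G12520 are closely similar neighbouring copies, and their counts are uncertain. On deviations from the group means none of these 12 ranked among the first 12, so the likeness rests on differences between groups, and 259 genes had r above 0.9.

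Other genes of the strip machinery fell with the members in roots. Of 26 genes listed beside the members, 22 were in the table and 19 were tested. Falls were called for 2 of the 19 after 1 h, 11 after 2 h and 14 after 3 h, and rises for 0, 1 and 1. Over all genes tested, 9.06%, 12.3% and 19.5% fell and 11.5%, 12.7% and 21.1% rose at these times. The 1 h count of falls is near that background. The median log2 fold change of the list was -0.04, -0.57 and -0.84 at these times. At 3 h the dirigent gene DIR24 went from 429.9 ± 10.3 CPM (SD, n = 3) in water to 127 ± 8.71 CPM and DIR9 from 197 ± 21.0 to 54.2 ± 3.08 CPM, falls of 1.75 and 1.86 on the log2 scale (edgeR adjusted p = 1.5e-09 and 4.5e-08). LAC3, a laccase, fell by 1.49 and UCC2, a uclacyanin, by 1.38 (edgeR adjusted p = 1.8e-08 and 4.0e-08). RBOHF, the NADPH oxidase that supplies superoxide for lignin polymerization, was the gene that rose, from 13.4 ± 2.05 to 24.9 ± 2.22 CPM at 3 h (log2 fold change 0.89, edgeR adjusted p = 0.0015), and it is named after its value was seen. The 4 tested genes not called at 3 h were SGN1, LOTR1, DIR18 and LAC13. From 1 h to 3 h, 0 of the 19 rose and 11 fell. Of all 10941 genes tested, 1548 were called in that comparison, and 939 of them (8.58% of all genes) fell.

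Regulators of endodermis identity and early pattern were called at 3 h about as often as all genes. Of 8 tested, falls were called for 0, 2 and 1 and rises for 0, 1 and 2 after 1, 2 and 3 h. Over all genes tested, 9.06%, 12.3% and 19.5% fell and 11.5%, 12.7% and 21.1% rose at these times. IDD4, a zinc finger gene, went from 17.9 ± 3.72 to 7.46 ± 0.316 CPM at 3 h (log2 fold change -1.26, edgeR adjusted p = 0.00015). MGP, a zinc finger gene acting with SCR and SHR, rose by 0.84 (edgeR adjusted p = 0.0041), and the related JKD rose from 0.917 to 2.84 CPM (edgeR adjusted p = 0.031). JKD passed the filter on low counts through its PEG libraries, so its rise is a description. SHR, which moves from the stele to switch on SCR, fell by 0.37 at 2 h (edgeR adjusted p = 0.032) and had -0.30 at 3 h (edgeR adjusted p = 0.054).

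Genes that make lignin monomers, the material of the strip, were called lower more often than higher. Of 15 tested, 5 were lower after 1 h, 5 after 2 h and 9 after 3 h, and 0, 2 and 1 were higher, with median log2 fold changes of -0.31, -0.26 and -0.46. Over all genes tested, 9.06%, 12.3% and 19.5% fell and 11.5%, 12.7% and 21.1% rose. HCT went from 597 ± 10.5 to 271 ± 9.94 CPM at 3 h and C3H1 from 283 ± 30.2 to 113 ± 12.8 CPM, falls of 1.14 and 1.32 on the log2 scale (edgeR adjusted p = 1.5e-07 and 5.6e-07). The ligase genes 4CL1 and 4CL2 fell by 1.02 and 0.70 (edgeR adjusted p = 7.7e-05 and 0.00012). PAL2, the gene that rose at 3 h, had a log2 fold change of 0.39 (edgeR adjusted p = 0.035) and is named after its value was seen. Vessels also use these enzymes, so the list is not specific to the endodermis.

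Suberin genes build the second barrier of the endodermis. Of 11 tested, 1 was higher and none lower after 1 h, and after 2 h as after 3 h 3 were higher and 2 lower, with a median of 0.09 at 3 h. At 1, 2 and 3 h, 11.5%, 12.7% and 21.1% of all genes tested rose and 9.06%, 12.3% and 19.5% fell. The counts at 1 h and 3 h are near that background. The 3 rises of 11 at 2 h lie above their share, a difference of few genes that was not tested. CYP86A1, a fatty acid hydroxylase, fell from 182 ± 7.42 to 113 ± 10.3 CPM at 3 h (log2 fold change -0.68, edgeR adjusted p = 0.00016), and the transporter gene ABCG20 fell by 0.69 (edgeR adjusted p = 0.0056). MYB39, a regulator of suberin synthesis, rose from 0.556 ± 0.586 to 5.13 ± 1.43 CPM, and the acyltransferase gene GPAT7 from 0.578 ± 0.381 to 4.04 ± 1.93 CPM (edgeR adjusted p = 0.00046 and 0.00071). Both genes were at about 1 CPM or less in water, as MYB36 was, and passed the filter on low counts through their PEG libraries. Their rises are therefore a description.

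**Figure D4:**
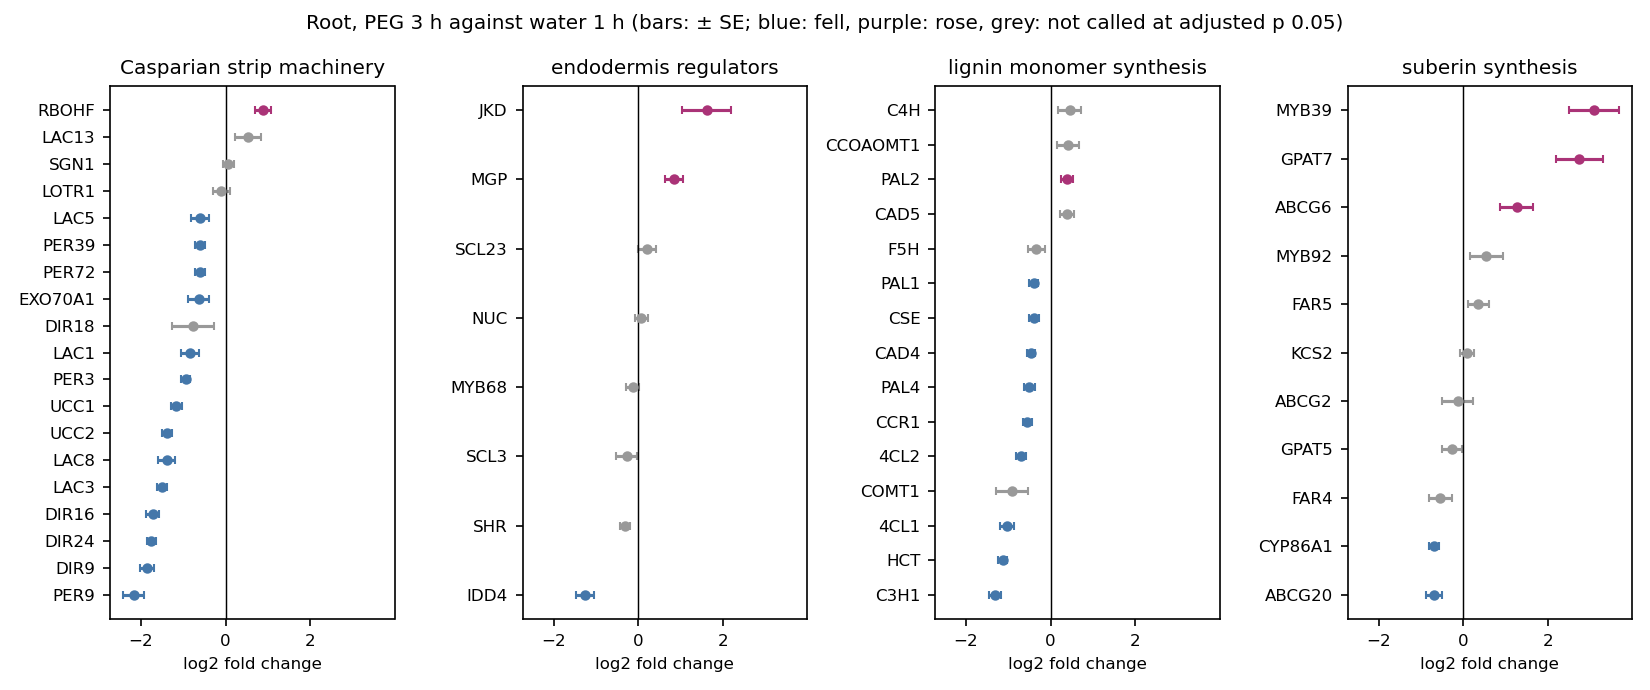
Log2 fold change in roots at PEG 3 h against water 1 h for the tested genes of 4 lists, with bars of ± SE; blue marks genes that fell, purple genes that rose and grey genes not called at an adjusted p of 0.05. In the strip machinery 14 of 19 genes are blue and RBOHF is purple, and among suberin genes 3 are purple and 2 blue, with MYB39 at 3.09 and ABCG20 at -0.69.

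Markers of other root cell types were read in the same libraries. Over all genes tested, 9.06%, 12.3% and 19.5% fell and 11.5%, 12.7% and 21.1% rose at 1, 2 and 3 h. The lists hold 1 to 5 tested genes, too few for the counts of 0 or 1 outside root hair to be told apart from these shares. Root hair markers fell at each time in 4 of 5 tested, and their summed level went from 229 to 249.96 CPM in water to 41.8 to 54.1 CPM at 3 h. RHD6 was not called at 3 h (log2 fold change 0.11). COBL9 was at 0 in 1 root library and was the defining marker nearest to 0. In the xylem list 1 of 4 tested genes fell (XCP2), and IRX1 was at 0 in 6 of 12 root libraries. The summed levels were 346 to 393 CPM in water and 140.1 to 158 CPM at 3 h. That sum is mostly XCP2, at a mean of 195 CPM over the root libraries beside 33.2 CPM for XCP1. At 3 h XCP1, IRX3 and VND7 were not called (log2 fold changes -0.30, 0.23 and -0.79). Of 2 cortex markers tested, 1 fell at each time, and C/VIF2 was at 0 in 7 libraries. The cortex sum was 179.9 to 198 CPM in water and 68.3 to 110.2 CPM at 3 h. At 3 h AT1G62510 had a log2 fold change of -2.30, and CO2 was not called (-0.17). Phloem markers summed to 251 to 276 CPM in water and 231 to 302 CPM at 3 h, with 1 of 3 called lower, and root cap markers to 18.3 to 23.8 and 25.0 to 25.9 CPM, with 0 of 3 called. Of the remaining lists at 3 h, 0 of 1 epidermis marker was called, 1 of 2 pericycle and xylem parenchyma markers rose, and 0 of 5 green tissue markers was called. The part of cell composition in the falls of the strip genes was not tested. The endodermis regulators, summed, lay at 264 to 278 CPM in water and 233 to 265 CPM at 3 h. MYB68 and SHR hold most of that sum (means of 94.3 and 78.4 CPM over the root libraries), so it does not measure endodermal cells.

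Reference genes of the osmotic stress response did not share 1 course. NCED3, which makes the abscisic acid precursor, rose from 0.823 ± 0.255 CPM in water to 9.02 ± 0.890 CPM at 1 h (edgeR adjusted p = 0.00022) and 29.6 ± 11.99 CPM at 3 h, and P5CS1, of proline synthesis, rose from 39.0 ± 2.55 CPM in water to 104 ± 33.7 CPM at 3 h (edgeR adjusted p = 1.2e-07 and 5.5e-05). At 1 h P5CS1 was at 47.7 ± 7.34 CPM (edgeR adjusted p = 0.34). NCED3 passed the filter on low counts through its PEG libraries, so its rise is a description. RD29A was at 671 ± 56.7 CPM in water, 323 ± 198 CPM at 1 h and 1113 ± 154 CPM at 3 h (edgeR adjusted p = 0.10 at 1 h and 0.16 at 3 h), and RD29B did not pass the filter. Summed over the 4 genes, the 1 h libraries (184 to 592 CPM) lay below the water libraries (647 to 763 CPM) and the 3 h libraries (1092 to 1457 CPM) above them. That sum is mostly RD29A, at 671 CPM in water beside a mean sum of 712 CPM. The means of NCED3 and P5CS1 were higher at 1 h than in water, so the sum does not describe these genes.

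In shoots the strip genes were near background, and no response to PEG was called. The 4 genes that passed the filter in both organs (CASP1, ESB1, PER64 and SCR) were each higher in root than in shoot in water. In that comparison 37.8% of all genes tested were higher in root. PER64 passed the filter in shoots through its PEG libraries, so its test is a description. The library code digit also differs between the water groups of root and shoot. PER64 had 16 counts in the 3 shoot water libraries and 2771 in the 3 root water libraries, a log2 difference of 7.23 ± 0.31 (edgeR adjusted p = 5.1e-20). The log2 differences of CASP1 and ESB1 were 6.69 and 5.18 (edgeR adjusted p of 1.4e-19 or less), and that of SCR was 1.496 ± 0.26 (edgeR adjusted p = 3.4e-06). CASP2 and MYB36 did not pass the filter in shoots and entered this fit through their root counts, so their values are a description. CASP2 had 15 counts in the shoot water libraries and 1838 in root. MYB36 had 0 counts in the shoot water libraries, where 3 counts would be 0.315 CPM, against 12 counts in root. The root level was 3.04-fold above that floor, a value that leaves out the counting error of the 12 root counts. SGN3 differed by 0.85 ± 0.48 (edgeR adjusted p = 0.093). A check of the labelled organs by these genes found no root library below any shoot library in the summed share of the 4 falling genes.

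Of the 7 genes, 4 passed the filter in shoots (CASP1, ESB1, PER64 and SCR), while CASP2, MYB36 and SGN3 were too scarce there to be tested. PER64 passed through its PEG libraries, so its shoot tests are a description. By edgeR 0 of 4 were called at 1, 2 or 3 h, where 5.32%, 13.8% and 26.0% of all genes were called in either direction. With DESeq2 the count was also 0 at each time. CASP1 at 3 h had an unadjusted edgeR p of 0.022, and the share of all genes under an unadjusted 0.05 was not counted. CASP1 had 19, 9 and 16 counts in the shoot water libraries and 4, 7 and 10 at 3 h (log2 fold change -1.21 ± 0.49, edgeR adjusted p = 0.074). The library code digit also differs between shoot water and shoot PEG 3 h. ESB1 was at 6.39, 7.21 and 7.83 CPM in shoot water and at 7.94, 8.20 and 6.09 CPM at 3 h, which overlap. SCR was at 12.1, 6.01 and 7.18 CPM in shoot water and at 8.73, 7.69 and 7.11 CPM at 3 h. The shoot PEG 2 h library of 343397 counts held 0 to 3 counts of each of the 7 genes.

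The root response was set against the shoot response in a fit of all 24 libraries. For 1 of 7 genes the responses differed at each time: PER64 at 1 h (-1.58 ± 0.50, edgeR adjusted p = 0.046), CASP1 at 2 h (-1.32 ± 0.42, edgeR adjusted p = 0.044) and ESB1 at 3 h (-1.34 ± 0.35, edgeR adjusted p = 0.0070). With the root and shoot libraries of 1 treatment and replicate number blocked as a seedling pool, the PER64 and CASP1 calls were lost (edgeR adjusted p = 0.12 and 0.10) and that of ESB1 was not (edgeR adjusted p = 0.0085). Both were also lost with RLE factors, no filter or no TMM (edgeR adjusted p of 0.072 to 0.11). Over all genes, 7.89%, 7.50% and 16.8% differed at 1, 2 and 3 h, so 1 of 7 at each time is near the background. Of the 7, CASP2, MYB36 and SGN3 did not pass the filter in shoots. PER64 passed it there through its PEG libraries, so its difference is a description. CASP2 had a difference of -1.06 ± 0.64 at 3 h, with 11 shoot counts at that time.

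Neighbouring and similar genes could add reads to these values. No other gene shared a run of 30 bases with the last 500 bases of any member, and the longest run shared by the ends of any 2 of CASP1, CASP2, CASP4 and CASP5 was 17 bases. CASP1 overlaps AT2G36090 on the opposite strand, which was at 104 CPM in water and 44.1 CPM at 3 h, so without a stated strand setting the reads of the pair cannot be told apart where they overlap. ESB1 and PER64 overlap AT2G28671 and AT5G42190, whose levels in water were 1.15 and 3.36 CPM. SGN3 overlaps AT4G20150, at 1178 CPM in water. CASP2, MYB36 and SCR overlap no annotated gene.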

How the data were processed

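Counts came from 24 MARS-seq libraries, a 3′ method, from roots and shoots of pooled seedlings. Per the submitters' processing notes, reads were handled with bcl2fastq, cutadapt, STAR 2.4.2a and HTSeq and tested with DESeq2. The genome build, the strand setting and any collapsing of molecular identifiers are not given in the sources used here. The authors deposited 1 table of 18240 genes with raw counts, a normalized signal (each column equal to the counts times 1 factor), log2 values, and for each of their comparisons a log2 fold change and an adjusted p-value, per the file headers. Their first-named group is the numerator, so signs were turned to PEG over water.

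Counts were tested with edgeR 4.0.16 in R 4.3.3: filterByExpr, TMM scaling, robust quasi-likelihood F tests (two-sided) and Benjamini-Hochberg adjustment over all genes tested (10941 in root, 13769 in shoot, 15472 in the fit of both organs), called at an adjusted p under 0.05. Organ fits had 12 libraries and 4 group means, and the fit of both organs had 24 libraries and 8 group means. Root against shoot and the differences between organs used the latter. CPM comes from the organ fits, ± after a fold change is the SE and ± after a level is the SD of 3 libraries. Likeness was Pearson's r on log2 CPM with a prior count of 2. Ratios were tested with an exact permutation test. Intervals cover these libraries and counting error only, and the floor covers counting error in the shoot libraries only. Replicates are labelled biological; no 2 libraries of a group differed by less than sampling noise (chi-square per degree of freedom 2.63 to 8.91 over 24 pairs).

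The members, the gene lists and the tests were chosen with earlier results of these data known. A further gene of the chosen set is not reported here and entered only the fits across all genes. Named genes are the reported members, up to 4 genes per list with the lowest adjusted p in root, the 12 genes most like the CASP course, and RD29A, RD29B, NCED3 and P5CS1; others are marked where named. Alternatives were DESeq2 1.42.0, RLE factors, no filter, the replicate block, the digit in the library code, a fit of all 24 libraries, leaving out each library and, chosen after seeing the data, library totals without TMM. Symbols and windows came from RefSeq TAIR10.1, in which 18125 of 18240 identifiers were found. The fits were tested on simulated data.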

Additional observations from a re-analysis of the deposited data

Results flagged for a closer look

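The responses of roots and shoots differed, by a test of the difference itself, for PER64 at 1 h (-1.58 on the log2 scale), CASP1 at 2 h (-1.32) and ESB1 at 3 h (-1.34). That is 1 of 7 genes at each time, near the 7.89%, 7.50% and 16.8% of all genes that differed. The PER64 and CASP1 calls were lost with the seedling pool as a replicate block (edgeR adjusted p = 0.12 and 0.10) and with RLE factors, no filter or no TMM, and that of ESB1 at 3 h was kept under each of these. Behind the PER64 value stand 16 shoot counts in water and 40 at 1 h, and without shoot PEG 1 h replicate 2 it was -0.73 (edgeR adjusted p = 0.53). PER64 passed the filter in shoots through its PEG libraries, so its value is a description. Behind the CASP1 value stand 44 shoot counts in water and 32 at 2 h, and without shoot PEG 2 h replicate 3 it was -0.32 (edgeR adjusted p = 0.80). ESB1 had 67 shoot counts in water and 76 at 3 h, and without shoot PEG 3 h replicate 2 its difference was -1.19 (edgeR adjusted p = 0.055).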

How the results depend on the processing

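Of 896 gene values under alternatives, 801 kept their direction and their side of the threshold, 37 lost and 15 gained a call, and 43 changed sign, 42 of them in genes called under neither setting. The falls of CASP1, CASP2, ESB1 and PER64 at 2 h, 3 h and 3 h against 1 h kept direction and call under every alternative run, except ESB1 at 2 h with the library code digit; the cause was not tested. Shoot depth limits the shoot values and the differences between organs, with 0 to 3 counts per gene in the shallowest library. A fit of all 24 libraries moved the median of all genes at root 1 h to -0.15 from 0.03, so its 1 h values are relative to that shift.

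Root counts of members called at 1 h were 1 with DESeq2, RLE factors, no filter, no TMM or all 24 libraries (CASP1 each time), and 0 to 2 with 1 library left out. With the digit as a term, 629, 613 and 987 genes were called in root at 1, 2 and 3 h in place of 2248, 2744 and 4440, and 2364 in shoot at 3 h in place of 3578; members called in shoot at 3 h were then 2, and 1 with all 24 libraries. Leaving out 1 library gave 1249 to 2495 genes at root 1 h, 1935 to 2292 at root 2 h, 3497 to 4337 at root 3 h, 888 to 1426 for 3 h against 1 h, 397 to 679, 857 to 2135 and 2531 to 3334 in shoot at 1, 2 and 3 h (members 0 to 1 at 3 h), and 372 to 1272, 741 to 1613 and 2026 to 2588 for the differences between organs. The lowest root counts came without PEG 1 h replicate 2 (1 h) and PEG 3 h replicate 2 (3 h against 1 h). Members whose organ responses differed numbered 0 at 1 h and 0 at 2 h with RLE factors, no filter, no TMM or the replicate block, 2 at 2 h with DESeq2, and with 1 library left out 0 to 1, 0 to 4 and 0 to 1 at 1, 2 and 3 h. Of the 12 genes most like the CASP course, 11 were shared under RLE factors and 0 on deviations from group means.

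Deviations of same-numbered replicates were weakly correlated, and no comparison had all 3 correlations over 0.1 (range -0.16 to 0.25). Root and shoot at PEG 3 h gave 0.03, 0.11 and 0.08. Differently numbered replicates were not compared, so these values cannot settle whether same-numbered root and shoot libraries share a seedling pool. With the replicate block, 4 members were called at 2 h and 5 at 3 h in root, as without it, and 2226, 2730 and 4415 genes at 1, 2 and 3 h.

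Signs of log2 fold changes changed with library totals without TMM for SCR root PEG 2 h (0.0337), SCR root PEG 3 h over 1 h (0.0898), SCR root minus shoot, 2 h (0.0563). They also changed with library code digit as a term for ESB1 root PEG 1 h (0.0921), SCR root PEG 1 h (-0.19), SCR root PEG 3 h (-0.45), CASP1 shoot PEG 2 h (-0.52), ESB1 shoot PEG 2 h (-0.68), PER64 shoot PEG 2 h (-0.91), SCR shoot PEG 2 h (0.34), ESB1 shoot PEG 3 h (-1.84), SCR shoot PEG 3 h (0.91). They also changed with no filter on low counts for SCR root minus shoot, 2 h (0.0219). They also changed with all 24 libraries fitted together for SCR root PEG 3 h over 1 h (0.15). ESB1 in shoot at 3 h was called with the digit term (edgeR adjusted p = 0.023).

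Leaving out 1 library gave both signs for ESB1 root PEG 1 h (-0.12 to 0.0806), SCR root PEG 1 h (-0.19 to 0.37), MYB36 root PEG 3 h over 1 h (-0.37 to 0.37), SCR root PEG 3 h over 1 h (-0.23 to 0.34), SCR root PEG 2 h (-0.19 to 0.0386), CASP1 shoot PEG 1 h (-0.42 to 0.26), SCR shoot PEG 2 h (-0.56 to 0.34), ESB1 shoot PEG 3 h (-0.0505 to 0.16), SCR shoot PEG 3 h (-0.34 to 0.24), CASP1 shoot PEG 2 h (-0.52 to 0.62). It did the same for ESB1 shoot PEG 2 h (-0.68 to 0.91), PER64 shoot PEG 2 h (-0.91 to 1.20), SCR root minus shoot, 3 h (-0.043 to 0.51), SCR root minus shoot, 2 h (-0.48 to 0.42), CASP1 root minus shoot, 1 h (-0.75 to 0.0509), ESB1 root minus shoot, 2 h (-1.66 to 0.23), PER64 root minus shoot, 2 h (-2.31 to 0.0864).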
